A study of Mus musculus with 6 samples.

Results

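The genes of norrin signalling and of the Wnt receptor pathway it shares were followed in the ischemic mouse retina, with and without chronic intermittent hypoxia (CIH). The set holds 10 genes of the 32285 in the count table, taken by name: Ndp, Fzd4, Lrp5, Lrp6, Tspan12, Ctnnb1, Lef1, Axin2, Sox17 and Apcdd1. They were not picked by their values, but earlier results of these data were known. Each of the 10 had enough reads to be tested, among 20021 genes in all. None of the 10 passed the threshold for a difference between OIR-CIH and OIR-Norm retinas in edgeR, DESeq2 or limma. The widest fitted difference was that of Lef1, with a log2 fold change of -0.63, and it did not hold after correction for the number of genes.

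Norrin, the product of Ndp, is a secreted protein that is not a Wnt but binds the Wnt receptor Frizzled 4. In retinal endothelial cells it assembles Frizzled 4, the co-receptor LRP5 or LRP6 and the tetraspanin TSPAN12 into a complex that spares beta-catenin from degradation. Beta-catenin then acts in the nucleus with TCF/LEF factors, and loss of norrin, Frizzled 4, LRP5 or TSPAN12 is known to leave the deep retinal capillary layers missing and the blood-retina barrier leaky.

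The question of the experiment was how CIH, the gas pattern of sleep apnea, alters a retina that is already ischemic. All mice were wild-type C57BL/6J and went through oxygen-induced retinopathy (OIR), which means that pups and their mothers were kept at 75% O2 from postnatal day (PN) 8 to PN13 and central capillaries were lost. The 3 OIR-CIH libraries came from pups then exposed for 10 h daily to 266 cycles of 135 s in which cage O2 swung between 20.95% and 5%. The 3 OIR-Norm libraries came from pups under the same gas flow at constant O2, and both groups were sampled at PN18. A retina without hyperoxia is not among the samples used here, so that every value describes tissue after OIR.

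Total counts lay between 26289905 and 38010151 per library, and the totals of the groups overlapped. The extraction protocol speaks of 3 eyes per group, but each library held both Xist (298.5 to 1653 CPM, counts scaled to a common library total) and the Y-linked Ddx3y (21.2 to 65.0 CPM), so that RNA of both sexes was present in each, which 1 eye of 1 animal would not give, and the number of animals behind a library is not known. The p-values therefore measure the spread between 3 libraries per group. OIR-Norm replicate 2 stood apart. It held 173 CPM of the lens crystallin Cryaa against 4.39 to 30.0 CPM in the other libraries, and it had the highest sums of endothelial and of mural cell markers. Values without this library are given beside the results whose direction it decided. Across all genes tested, 73 (0.365%) passed as called. OIR-CIH was the lower group for 51 of these (0.255%) and the higher for 22 (0.11%). A call needed a Benjamini-Hochberg adjusted p under 0.05 in edgeR's quasi-likelihood test and a fitted log2 difference of more than 0.5, up or down.

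Levels of the 10 genes were first ordered per length, as CPM divided by exon length in kilobases (RPKM), averaged over the 6 libraries. Ctnnb1, which encodes beta-catenin, stood far above the rest at 64.1 RPKM (range 59.2 to 68.8). The co-receptor gene Lrp6 (6.47 RPKM), the feedback gene Axin2 (6.03 RPKM), Ndp (5.24 RPKM), Tspan12 (4.49 RPKM), Fzd4 (3.53 RPKM), Apcdd1 (2.79 RPKM) and Lrp5 (2.16 RPKM) followed. Within this middle block each gene overlapped its neighbour in the order over the 6 libraries. Sox17 (0.248 RPKM) and Lef1 (0.205 RPKM), both transcription factor genes, closed the order and overlapped each other, and neither overlapped Lrp5 in any library. Lrp6 stood above Lrp5 in every library, with lowest and highest values of 6.08 and 6.87 RPKM against 1.88 and 2.54 RPKM.

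**Figure D1:**
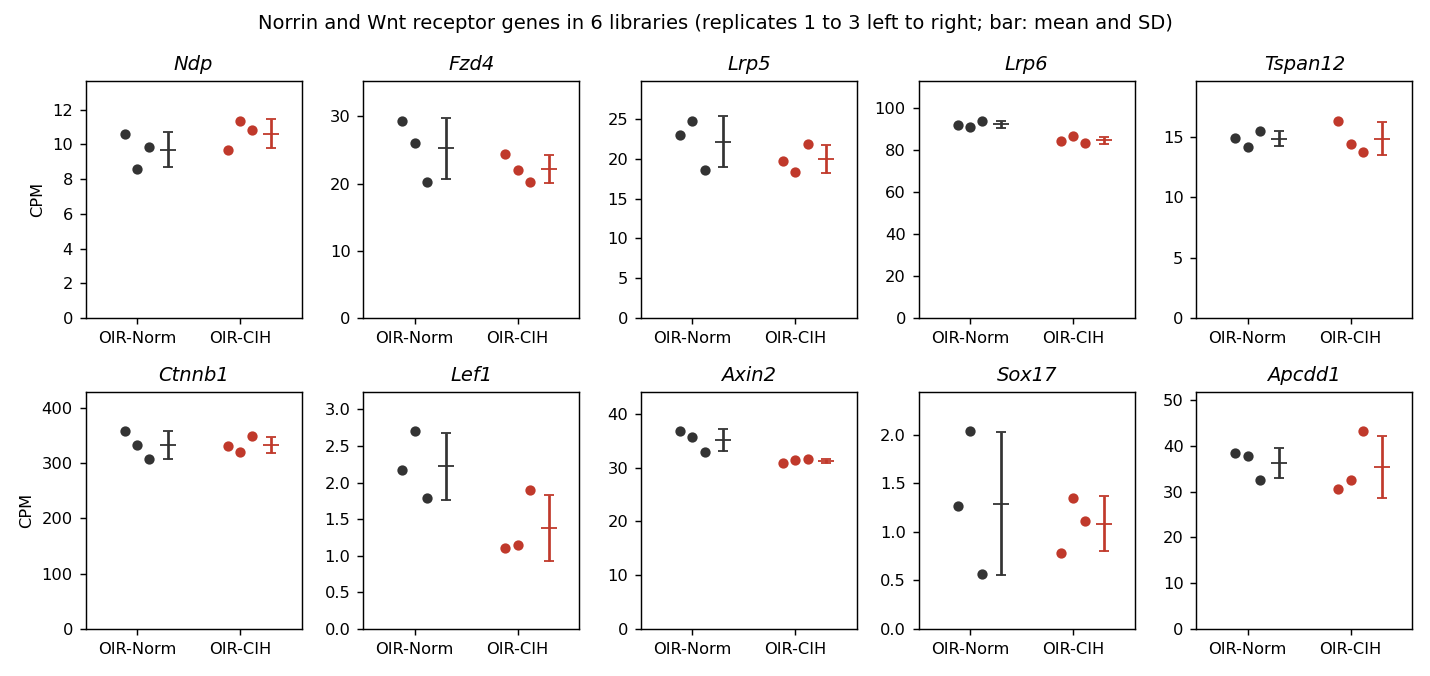
Level of each of the 10 genes in CPM, on axes that start at 0, in the 3 OIR-Norm (black) and 3 OIR-CIH (red) libraries, 1 point per library with the group mean and SD beside them. The points of the groups overlap for 8 genes, and those of Lrp6 and Axin2 are lower in all 3 OIR-CIH libraries by a small margin.

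Ndp (ENSMUSG00000040138, chrX:16885521-16911774, positions of GRCm38 here and for the genes that follow) is the ligand gene. Müller glia are known as its main source in the retina. It reached 9.69, 11.4 and 10.8 CPM in the OIR-CIH libraries and 10.6, 8.59 and 9.86 CPM in the OIR-Norm libraries. The groups overlapped, with the lowest value in OIR-Norm and the highest in OIR-CIH. The fitted log2 fold change was 0.13 (SE 0.12, 95% interval -0.13 to 0.40, edgeR adjusted p = 0.672). In percent the interval ran from -8.47% to 31.7%. The 8 markers of Müller glia gave a median log2 fold change of 0.01, with 0 called and 3 at an unadjusted p under 0.05 (2 lower and 1 higher in OIR-CIH).

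Fzd4 (ENSMUSG00000049791, chr7:89404355-89413134) encodes the receptor, a membrane protein to which norrin binds from outside the cell. Its level was 24.4, 21.9 and 20.2 CPM with CIH and 29.4, 26.03 and 20.3 CPM without. OIR-Norm replicates 1 and 2 were above all OIR-CIH libraries, and OIR-Norm replicate 3 was level with the lowest of them. Fitted across libraries, Fzd4 had a log2 fold change of -0.19 (SE 0.13, interval -0.46 to 0.08, edgeR adjusted p = 0.549). This value rested in part on single controls. Without OIR-Norm replicate 3 it was -0.33 (edgeR adjusted p = 0.243), and without OIR-Norm replicate 1 it was -0.07 (edgeR adjusted p = 0.844).

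The co-receptors Lrp5 and Lrp6 are close relatives that take up the signal beside Frizzled proteins, and Lrp5 is the one whose loss mimics loss of norrin in the eye. Lrp5 (ENSMUSG00000024913, chr19:3584828-3686564) measured 19.7, 18.3 and 21.8 CPM in OIR-CIH against 23.0, 24.8 and 18.6 CPM in OIR-Norm. The lowest OIR-Norm library lay inside the OIR-CIH range. Its log2 fold change was -0.14 (SE 0.12, edgeR adjusted p = 0.627), and leaving out OIR-Norm replicate 3 or 2 moved it to -0.26 or -0.06. Lrp6 (ENSMUSG00000030201, chr6:134446476-134566965) was tighter, at 84.2, 86.5 and 83.2 CPM in OIR-CIH and 91.7, 91.0 and 94.0 CPM in OIR-Norm.

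All 3 OIR-CIH values of Lrp6 were below all 3 OIR-Norm values, by a small margin. The log2 fold change was -0.12 (SE 0.07, interval -0.27 to 0.03), and the edgeR adjusted p was 0.473. By exact permutation of the libraries, two-sided, p was 0.1, and 3 against 3 cannot give less. Groups that did not overlap were seen for 18.4% of all genes tested, 9.26% with OIR-CIH lower and 9.12% with it higher, and for 2 of the 10 genes followed here.

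Tspan12 (ENSMUSG00000029669, chr6:21771395-21852515), the tetraspanin that raises the response of the receptor complex to norrin, was the most even of the membrane components between groups. It gave 16.4, 14.4 and 13.7 CPM with CIH and 14.9, 14.2 and 15.5 CPM without. The OIR-Norm values fell inside the OIR-CIH range. The means of 14.8 ± 1.36 and 14.9 ± 0.641 CPM (SD, n = 3 each) left a log2 fold change of -0.01, and the interval ran from -15.0% to 16.4%. The annotation places a gene of the opposite strand, Gm30270, over part of Tspan12, and which strand's reads were counted is not given in the sources used here. Genes of the opposite strand are also annotated over Ctnnb1, Lef1, Axin2 and Sox17.

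Ctnnb1 (ENSMUSG00000006932, chr9:120929216-120960507) passes the signal on to the nucleus and also anchors cadherins at cell junctions in most cells of the retina. Its mRNA was at 329.9, 320.0 and 348.9 CPM in OIR-CIH and 357.3, 333.1 and 307.2 CPM in OIR-Norm. The group means were 332.9 ± 14.7 and 332.5 ± 25.1 CPM (SD, n = 3 each), with the highest and the lowest library both in OIR-Norm. With 8408 to 13183 counts per library, depth was not what limited this comparison, and the interval of the fold change ran from -11.3% to 13.0%. Norrin acts on the stability of the protein, which these data do not measure.

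Lef1 (ENSMUSG00000027985, chr3:131110471-131224356), a DNA-binding partner of beta-catenin and itself a gene that Wnt signalling is known to switch on in endothelial cells, had the widest fitted difference in the set. It stood at 1.10, 1.14 and 1.91 CPM in OIR-CIH and 2.17, 2.701 and 1.79 CPM in OIR-Norm. OIR-CIH replicates 1 and 2 were the lowest of the 6 libraries, and the groups overlapped only because OIR-CIH replicate 3 was just above OIR-Norm replicate 3. These levels rested on 28 to 77 counts per library.

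The log2 fold change of Lef1 was -0.63 (SE 0.26, interval -1.18 to -0.07), with an unadjusted p of 0.02998 and an adjusted p of 0.330 in edgeR. It was the only gene of the 10 with an unadjusted p under 0.05, while 13.2% of all genes tested had one (6.93% lower and 6.31% higher in OIR-CIH). By the exact two-sided permutation test p was 0.2. Without OIR-Norm replicate 2, the library with the most vascular and lens RNA, the log2 fold change was -0.47 (unadjusted p = 0.1198, edgeR). Without OIR-CIH replicate 3 it was -0.98 (unadjusted p = 0.004414 and adjusted p = 0.274, edgeR). Over the 6 fits that left out 1 library the adjusted p of Lef1 was 0.264 to 0.639, and over the 8 other alternatives it was 0.304 to 0.384. The fitted value was below 0 in all 14, among them the main fit without the size limit, and called in none.

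Axin2 and Apcdd1 are textbook targets of beta-catenin that feed back on the pathway, Axin2 as a scaffold of the complex that degrades beta-catenin and Apcdd1 as a membrane inhibitor. Axin2 (ENSMUSG00000000142, chr11:108920349-108950783) read 30.9, 31.4 and 31.6 CPM in OIR-CIH and 36.8, 35.7 and 32.9 CPM in OIR-Norm. The OIR-CIH libraries were nearly equal and lay below all OIR-Norm libraries, the third of which was closest to them. For Axin2 the log2 fold change was -0.17 (SE 0.08, interval -0.34 to 0.01), the edgeR adjusted p 0.404 and the exact two-sided permutation p 0.1.

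Apcdd1 (ENSMUSG00000071847) did not share that order. It measured 30.6, 32.6 and 43.2 CPM with CIH and 38.5, 37.8 and 32.6 CPM without, and the highest and the lowest library were both OIR-CIH. The log2 fold change of -0.03 (SE 0.12, edgeR adjusted p = 0.943) turned positive when any one of 4 libraries was left out. Sox17 (ENSMUSG00000025902, chr1:4490931-4497354), an endothelial transcription factor tied to arterial identity, ran at 0.785, 1.35 and 1.11 CPM in OIR-CIH and 1.27, 2.04 and 0.566 CPM in OIR-Norm. Its highest and lowest values were both in OIR-Norm, 3.60-fold apart, and both rested on few reads (18 to 58 counts over all libraries).

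The Sox17 difference of -0.21 (SE 0.38, interval -1.03 to 0.61, edgeR adjusted p = 0.849) was not detectable at this depth and spread. Without OIR-Norm replicate 2 it was 0.26 and without OIR-Norm replicate 3 it was -0.58.

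**Figure D2:**
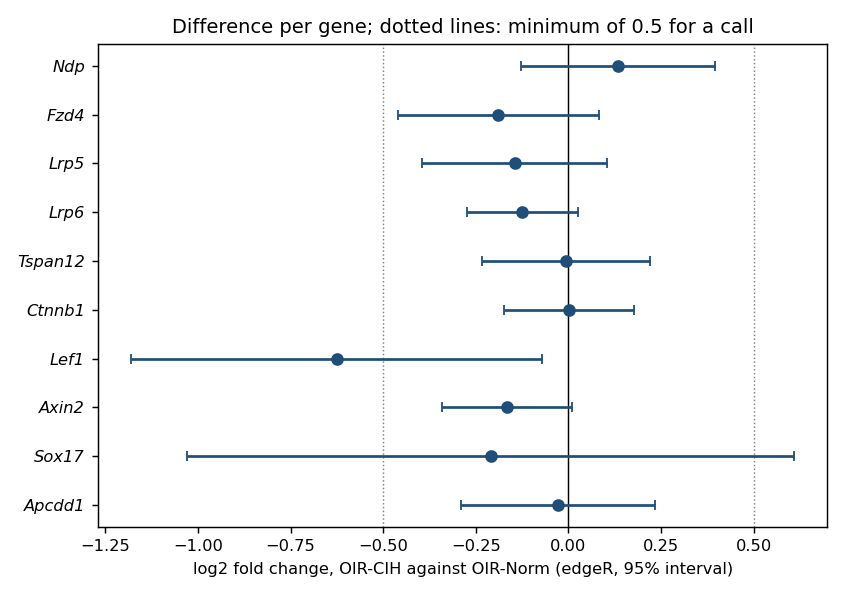
Log2 fold change of OIR-CIH over OIR-Norm for each of the 10 genes from edgeR, with its 95% interval as a bar and dotted lines at the minimum size of a call, 0.5 in either direction. Each interval except that of Lef1 crosses 0, and no gene has an adjusted p under 0.05.

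Over the 10 genes, 8 had a fitted log2 fold change below 0 and 2 (Ndp and Ctnnb1) above it. Their median was -0.13, against -0.005 over all genes tested, where 50.9% were below 0. Without OIR-Norm replicate 2 it was -0.05 with 6 of 10 below 0, and without the other libraries in turn it was -0.16 to -0.09. Their summed level was 539.0 to 576.4 CPM in OIR-CIH and 533.2 to 605.6 CPM in OIR-Norm, so that the sums overlapped. Most of each sum was Ctnnb1. Without OIR-Norm replicate 3, the control with the lowest Pecam1, Cdh5 and Tie1, 4 of the 10 genes had an unadjusted p under 0.05 in edgeR, all lower in OIR-CIH, beside 13.2% of the 19585 genes tested in that fit. These were Lef1 (log2 fold change -0.77), Fzd4 (-0.33), Lrp5 (-0.26) and Axin2 (-0.21). Their adjusted p-values were 0.243 to 0.344, and none was called. In the other fits that left out 1 library, 0 of the 10 had an unadjusted p under 0.05 in 4 and 1 (Lef1) in 1.

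Vessel content was read beside these values, since Fzd4, Tspan12, Lef1, Sox17, Apcdd1 and Axin2 are known from endothelial cells. In a bulk sample fewer cells of a type and less RNA per cell cannot be told apart. All 12 endothelial markers were detected. Their median log2 fold change was -0.32, with 10 of 12 below 0, 0 called and 1 at an unadjusted p under 0.05. Without OIR-Norm replicate 2 the median was 0.06 with 4 of 12 below 0, and without OIR-Norm replicate 3 it was -0.63. Their summed level was 290.3 to 332.5 CPM in OIR-CIH and 291.1 to 391.2 CPM in OIR-Norm. The 7 mural markers were all below 0 (median -0.50, 0 called and 1 at an unadjusted p under 0.05), with sums of 85.7 to 131.9 CPM and 94.0 to 227.7 CPM. OIR-Norm replicate 2 was the top of both ranges, and without it the mural median was -0.01 with 4 of 7 below 0.

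The pan-endothelial adhesion genes Pecam1 and Cdh5 varied more within OIR-Norm than between the groups. Pecam1 was at 9.38, 10.6 and 12.5 CPM in OIR-CIH and 12.3, 24.4 and 8.32 CPM in OIR-Norm. Cdh5 was at 5.65, 6.10 and 10.6 CPM in OIR-CIH and 10.3, 20.0 and 4.96 CPM in OIR-Norm. Sox17 shared their highest library, OIR-Norm replicate 2, and their lowest, OIR-Norm replicate 3. Lef1 shared only the highest. Fzd4, Tspan12, Apcdd1 and Axin2 did not peak in OIR-Norm replicate 2, where they were at 26.03, 14.2, 37.8 and 35.7 CPM. Which retinal cells gave the reads of these genes was not tested, so that ratios to endothelial markers need not be levels per endothelial cell. Kdr, the VEGF receptor gene that retinal neurons also express, was even, at 164.9 to 178.9 CPM in all libraries, and Kdr and Flt1 made up 66.8% to 82.1% of the endothelial sum.

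**Figure D3:**
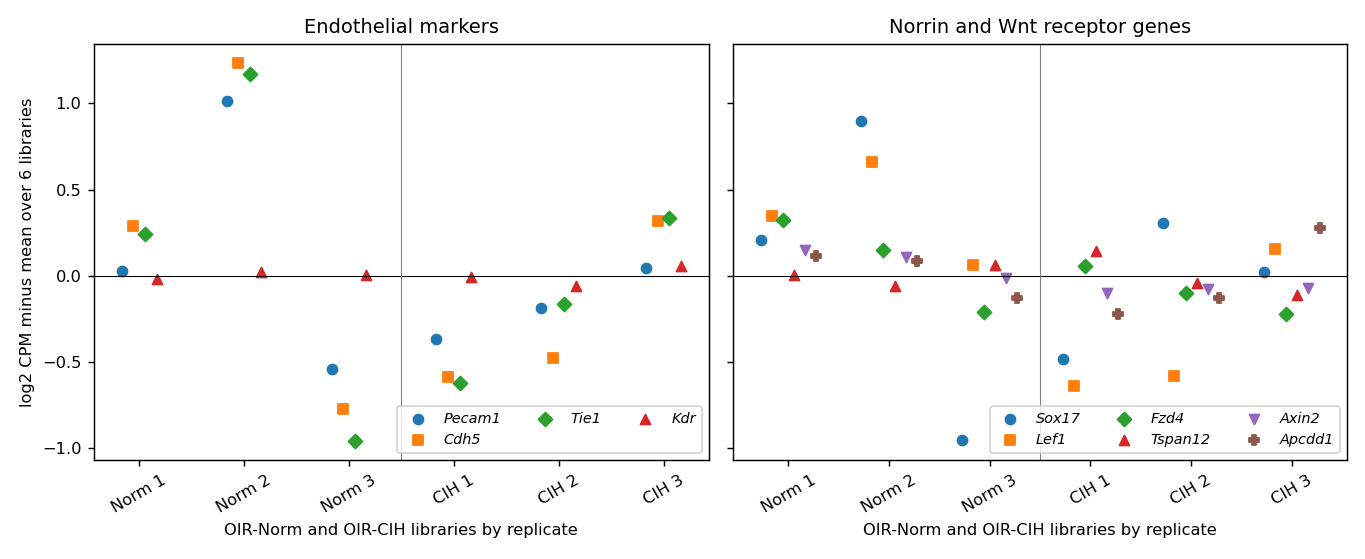
Log2 CPM minus the gene's mean over the 6 libraries, for 4 endothelial markers (left) and for 6 genes of the set that endothelial cells make (right), 1 point per library. Pecam1, Cdh5 and Tie1 peak in OIR-Norm replicate 2 and are lowest in OIR-Norm replicate 3, as is Sox17, while Kdr stays near 0.

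Levels relative to endothelial markers were computed, as the log2 ratio of a gene to the summed CPM of the 12 endothelial markers in the same library. For Lef1 the difference between the group means was -0.58, all 3 OIR-CIH ratios were below all 3 OIR-Norm ratios, and the exact two-sided permutation p was 0.1, the smallest possible. With Pecam1 and Cdh5 alone as denominator, a choice made after the data were seen, it was -0.31, the groups overlapped and the exact permutation p was 0.5. With the mean log2 CPM of the 12 markers, also chosen with the data seen, it was -0.52 and the groups overlapped (exact permutation p = 0.2). With Pecam1, Cdh5 and Kdr it was -0.64, the groups did not overlap and the exact permutation p was again 0.1. That denominator was mostly Kdr, since Pecam1 and Cdh5 gave 13.3 to 44.4 CPM of its 181.6 to 219.1 CPM. The size of the Lef1 difference and the separation of the groups therefore depended on the denominator. Against the 12 markers it was -0.78 to -0.48 when single libraries were left out.

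The other ratios to the 12 markers were close between groups and overlapped. The difference was -0.05 for Fzd4, 0.12 for Tspan12, 0.03 for Sox17, 0.08 for Apcdd1 and -0.04 for Axin2, with exact two-sided permutation p-values from 0.6 to 1. For Axin2, the non-overlap seen in CPM was not present in this ratio. Against Pecam1 and Cdh5 these 5 genes had differences of 0.23 to 0.40, with exact permutation p-values from 0.4 to 0.8. With so few libraries neither set of ratios could pass a threshold of 0.05.

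Markers of other cell types were read beside these. Gfap, a gene of astrocytes and of stressed Müller glia, was called lower in OIR-CIH, with a log2 fold change of -1.15 (edgeR adjusted p = 4.428e-05), and the 5 astrocyte markers summed to 131.6 to 139.9 CPM there against 194.0 to 242.0 CPM in OIR-Norm. The astrocyte median was -0.46, with 4 of 5 below 0. Microglia markers had a median of -0.25 (0 of 7 called), 5 photoreceptor markers 0.22 (0 called and 5 above 0) and pigment epithelium markers 0.65 (0 of 5). In edgeR 3 astrocyte and 3 microglia markers had an unadjusted p under 0.05, all lower in OIR-CIH, beside 6.93% of all genes tested. So did 2 photoreceptor and 2 pigment epithelium markers, all higher, beside 6.31%. All OIR-CIH libraries were higher for 3 photoreceptor, 2 pigment epithelium and 1 Müller glia markers, beside 9.12% of all genes tested. They were all lower for 3 astrocyte, 2 microglia and 2 Müller glia markers, beside 9.26%. The 4 lens markers tested had a median of -1.91 with 0 called, and of 0.21 without OIR-Norm replicate 2, and the fifth was not analysed here. The part of these shifts in the levels of the norrin genes was not tested.

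The rest of the Wnt pathway was read from 8 lists that hold 113 other genes. Of these, 108 were tested and 0 were called in either direction by edgeR, against 1 (Tcf7) by DESeq2 and 0 by limma. An unadjusted p under 0.05 was seen for 14, of which 8 were lower and 6 higher in OIR-CIH, which is close to the 13.2% of all genes. The groups did not overlap for 14, 6 lower and 8 higher, beside 18.4% of all genes tested (9.26% lower and 9.12% higher). Their median log2 fold change was -0.05, with 65 below 0 and 43 above. Without OIR-Norm replicate 3, edgeR called 3 of them (Cd44, Tcf7 and Wnt16), in a fit that called 113 of 19585 genes (0.577%), the most of any fit that left out a library. In the other 5 such fits it called 0. The genes Wnt1, Wnt3a, Rspo1, Dkk1 and Dkk4 had too few reads to be tested, with 2 to 6 counts over all libraries.

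Among upstream parts, 17 Wnt ligand genes were tested and 11 were below 0 (median -0.12). Wnt2b was at 9.52 ± 1.51 and 11.6 ± 1.59 CPM in OIR-CIH and OIR-Norm (SD, n = 3 each), and Wnt5a, the ligand with the highest mean CPM, at 12.3 ± 0.410 and 14.3 ± 1.68 CPM. Wnt16, present at 0.777 ± 0.199 and 1.71 ± 1.07 CPM, had an adjusted p of 0.363 in edgeR. The fitted log2 fold changes of the ligands ranged from -1.40 to 1.24, and the ends of that range were genes with few reads.

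The 9 other Frizzled receptors had a median of -0.12, with 6 below 0. Fzd1 was at 15.5 ± 1.197 CPM with CIH and 19.5 ± 2.25 CPM without (log2 fold change -0.32, edgeR adjusted p = 0.269), and its groups did not overlap. Fzd8 also had groups that did not overlap, at 12.2 ± 1.28 and 14.4 ± 0.876 CPM (edgeR adjusted p = 0.392). Fzd5, the one with the highest mean CPM, was at 53.0 ± 7.21 and 57.7 ± 4.29 CPM.

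Of 18 co-receptors and receptor modulators, 12 were below 0 (median -0.02). Rnf43, a ubiquitin ligase that clears Frizzled from the membrane, was at 0.709 ± 0.0769 CPM in OIR-CIH and 1.33 ± 0.358 CPM in OIR-Norm, on 17 to 47 counts per library (log2 fold change -0.90, edgeR adjusted p = 0.257). Ryk, a Wnt receptor with a kinase-like domain, was at 60.5 ± 1.99 and 53.3 ± 4.23 CPM (edgeR adjusted p = 0.356). Lgr4, an R-spondin receptor with the highest mean CPM of the list, was at 71.0 and 71.4 CPM on average.

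The secreted inhibitors had a median of 0.01 over 11 genes tested, and of -0.05 without OIR-Norm replicate 2. Frzb, which binds Wnt proteins outside the cell, was very even within groups, at 27.3, 27.0 and 27.5 CPM in OIR-CIH and 23.3, 22.9 and 23.3 CPM in OIR-Norm. All 3 OIR-CIH values were above all OIR-Norm values, and the log2 fold change was 0.24 (SE 0.08, edgeR adjusted p = 0.274). Dkk3, a Müller glia gene with by far the highest CPM of this list, was at 791.9 ± 98.2 and 806.0 ± 32.5 CPM.

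Inside the cell, the 15 genes of Dishevelled, the destruction complex and their adaptors had a median of -0.01, and of 0.03 without OIR-Norm replicate 2. Gsk3a, a kinase that marks beta-catenin for degradation, was at 90.7 ± 5.07 CPM in OIR-CIH and 79.3 ± 4.36 CPM in OIR-Norm (log2 fold change 0.19, edgeR adjusted p = 0.316). Among the 14 other TCF/LEF factors and co-factors (median -0.07, and 0.04 without OIR-Norm replicate 2), Tcf7 had the lowest adjusted p of all 108 genes. It encodes TCF1, the nearest relative of LEF1.

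Tcf7 was at 2.43, 2.43 and 3.04 CPM in OIR-CIH and 4.61, 5.86 and 3.49 CPM in OIR-Norm. All OIR-CIH libraries were below all OIR-Norm libraries. For Tcf7 the log2 fold change was -0.79 (SE 0.21), with an adjusted p of 0.149 in edgeR and 0.0395 in DESeq2, so that the tool decided the call. Tcf7 is on the list of changed genes that the study drew from these same samples, and its direction here is not independent of that list. Tcf7 and Lef1 are also made by lymphocytes, and which retinal cells gave these reads was not tested.

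In the same list Ctnnbip1, whose product keeps beta-catenin from binding TCF factors, was at 45.9 ± 1.76 CPM in OIR-CIH and 39.0 ± 1.55 CPM in OIR-Norm (log2 fold change 0.24, edgeR adjusted p = 0.259). Bcl9l, a co-activator of beta-catenin, was at 58.9 ± 1.28 and 67.4 ± 4.84 CPM (log2 fold change -0.19, edgeR adjusted p = 0.321). The groups did not overlap for either gene.

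Other feedback and target genes had a median of -0.06 over 15 genes, with 9 below 0 and 6 above, and leaving out OIR-Norm replicate 2 or 1 moved it to -0.20 or 0.04. Nkd1, a target that restrains Dishevelled, had the opposite order to Axin2, with 34.5, 32.8 and 38.5 CPM in OIR-CIH and 32.7, 26.03 and 24.5 CPM in OIR-Norm. The OIR-CIH libraries were all above the OIR-Norm libraries, the closest pair nearly touching. Its log2 fold change was 0.35 (SE 0.11, edgeR adjusted p = 0.240). Myc was at 1.65 ± 0.451 and 2.73 ± 1.02 CPM (log2 fold change -0.67, edgeR adjusted p = 0.332). Neither gene was called.

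The 12 other norrin-dependent endothelial genes, among them the barrier transporters, had a median of -0.23 with 8 below 0. The sign rested on OIR-Norm replicate 2, without which the median was 0.17 with 3 below 0, as it did for the endothelial markers. No gene of this list had an unadjusted p under 0.05 in edgeR. Slc2a1, the glucose transporter of the blood-retina barrier that other retinal cells also make, was at 418.9 ± 31.8 CPM with CIH and 364.7 ± 55.3 CPM without (edgeR adjusted p = 0.442). Abcb1a, the efflux pump P-glycoprotein, was at 3.16 and 4.12 CPM on average (edgeR adjusted p = 0.630).

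**Figure D4:**
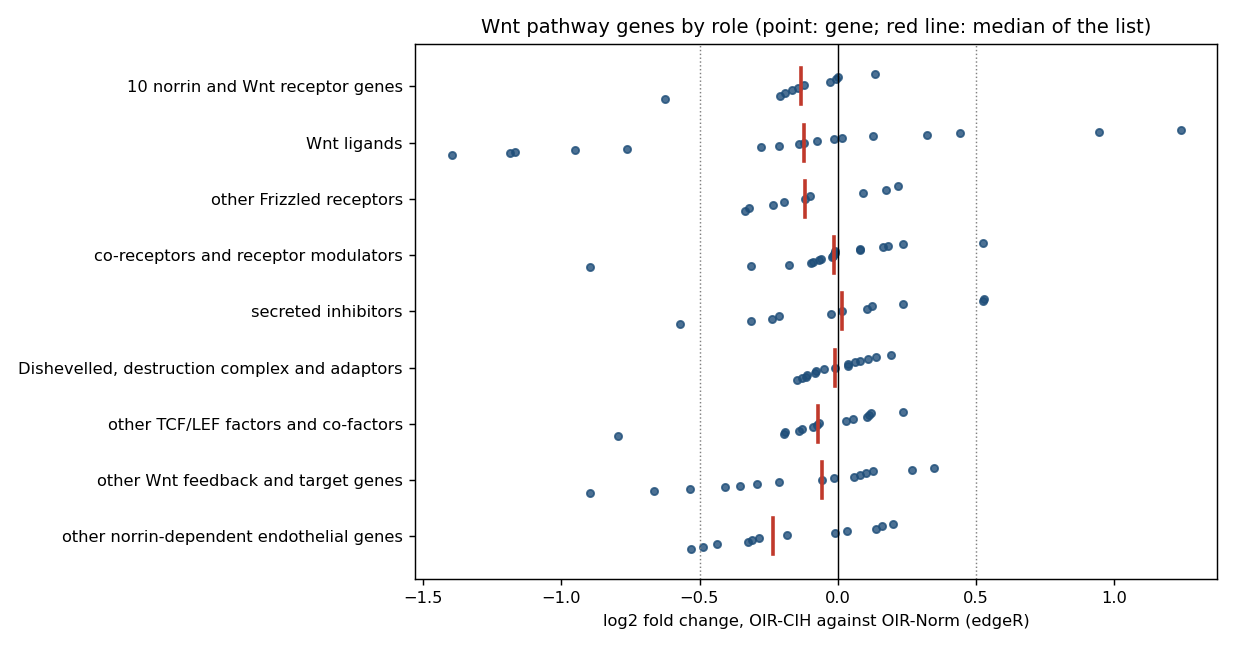
Log2 fold change of each gene tested in the 8 Wnt pathway lists and in the set of 10, from edgeR, 1 point per gene with the median of the list as a red line and dotted lines at 0.5 in either direction. The medians lie between -0.23 and 0.01, and no point is a called gene.

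Promoter sequence was then read for the set. From RefSeq (GRCm38.p6), 10 windows of the 250 bases before a start site were used, for 6 of the 10 genes. The other genes had no entry or are not reported here. The windows were searched on both strands for the TCF/LEF core CTTTGA or CTTTGT, which read TCAAAG and ACAAAG on the other strand, and neighbouring matches can share at most 1 base. A match was present in 3 of the 10 windows (30.0%) and in 27.6% of the 32851 windows of all genes, so that these letters were about as common here as elsewhere. The Axin2 window and some of the Lef1 windows are shown because those genes are read as targets of the pathway. They are written 5′ to 3′ on the gene's strand, with matches in capitals.
Lef1, chr3:131110047-131110296 (plus strand), before the gene's first start: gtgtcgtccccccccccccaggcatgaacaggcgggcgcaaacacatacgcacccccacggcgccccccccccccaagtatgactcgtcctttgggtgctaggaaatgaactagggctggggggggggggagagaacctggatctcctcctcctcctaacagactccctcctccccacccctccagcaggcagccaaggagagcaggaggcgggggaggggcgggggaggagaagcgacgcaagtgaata
Lef1, chr3:131156044-131156293 (plus strand), before a start inside the gene: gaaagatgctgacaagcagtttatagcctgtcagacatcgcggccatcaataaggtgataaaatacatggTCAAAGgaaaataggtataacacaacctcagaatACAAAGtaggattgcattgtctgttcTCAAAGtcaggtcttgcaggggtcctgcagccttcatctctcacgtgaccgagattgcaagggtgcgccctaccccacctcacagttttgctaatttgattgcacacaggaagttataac
Axin2, chr11:108920099-108920348 (plus strand): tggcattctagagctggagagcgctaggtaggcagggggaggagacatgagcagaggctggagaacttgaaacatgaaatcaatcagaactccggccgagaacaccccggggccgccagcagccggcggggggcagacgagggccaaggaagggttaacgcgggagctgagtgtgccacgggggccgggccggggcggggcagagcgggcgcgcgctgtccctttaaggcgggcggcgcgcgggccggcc

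The Lef1 window at chr3:131156044-131156293 held 3 matches, which began 180, 146 and 120 bases before that start. The window before the gene's first start held none. The Lef1 windows at chr3:131110073-131110322 and chr3:131112541-131112790, which are not shown, also held none. Axin2 held none in these 250 bases. Outside the windows shown, Ndp had 1 match at 171 bases and Tspan12 1 match at 117 bases before the start. A match is a description of letters and says nothing on binding, which was not measured in these samples.

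Genes whose profile over the 6 libraries was most like each gene were listed by Pearson's r of log2 CPM, among 12058 or 12059 genes with a mean of at least 5 CPM. Each of the 10 genes had between 42 and 247 genes with r over 0.9. The libraries share depth and cell make-up, so that these are descriptions. For Sox17 the nearest were Tm4sf1 (r = 0.987) and Cd34 (r = 0.977). For Lef1 they were Myd88 (r = 0.993) and Ltbr (r = 0.992).

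For Ndp the nearest genes were Ngdn (r = 0.992) and Lfng (r = 0.990), for Fzd4 Maml1 (r = 0.985) and Sdcbp (r = 0.982), and for Tspan12 Nob1 (r = 0.994) and Zfp963 (r = 0.994). For Lrp5 they were Snx33 (r = 0.998) and Ski (r = 0.995), for Lrp6 Gm37494 (r = 0.995) and Setdb1 (r = 0.993), and for Ctnnb1 R3hdm2 (r = 0.992) and Prkcsh (r = 0.991). Axin2 was nearest to Mettl13 (r = 0.987) and Shroom2 (r = 0.984), and Apcdd1 to Acot11 (r = 0.987) and Abcg2 (r = 0.987). None of the 10 genes had another of the 10 as its nearest. Lef1 and Sox17 lay under the limit of 5 CPM, so that neither could be the nearest of another gene. Among so many genes and so few libraries, this outcome says little on how the set varies together.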

How the data were processed

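Retinal mRNA of 3 OIR-CIH and 3 OIR-Norm libraries was sequenced, from 250 ng of total RNA per library and a kit that keeps strand. Reads were aligned by the authors with STAR, who deposited raw counts per gene, whole numbers without normalization. The submitters' processing notes name STAR 2.7.9a, DESeq and the build GRCm38, whereas the methods of the study name another Ensembl release, and which strand was counted is not given in the sources used here. The limits of the study were used here, which are at least 10 counts in total per gene, adjusted p below 0.05 and a log2 fold change larger than 0.5 in size.

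Symbols were matched by Ensembl identifier for 32158 of 32285 genes. Exon lengths and gene positions are those of GENCODE (GRCm38). Library sizes were adjusted by TMM (trimmed mean of M-values) and counts tested with edgeR 4.0.16 (R 4.3.3) by the quasi-likelihood test with robust dispersion over 20021 genes, adjusted by the Benjamini-Hochberg method. Standard errors were derived from the log2 fold change and its F statistic, and intervals are 95%. CPM and RPKM are scaled counts, and SD is over libraries. Single values were compared by an exact two-sided permutation test, which cannot give a p under 0.1 for 3 against 3. The fit was tested on simulated data.

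Named are the 10 genes, any called gene of the pathway and marker lists, and otherwise genes with the lowest unadjusted p or the highest CPM of each list. Cd44, and the markers given per library, were picked with their values in view. The genes of the set and all lists were chosen with earlier results of these data known. Alternatives were DESeq2 1.42.0, limma 3.58.1 on log2(CPM + 0.5), other scaling, filters and thresholds, a replicate block and leaving out each library. The labels do not say that the replicate numbers pair the libraries, and the main fit did not pair them. No replicate pair differed by as little as sampling noise. Protein sequences were not used here, and some genes of the set had no promoter entry or one that is not reported here. A further cell marker is not reported here and was left out of its list.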

Additional observations from a re-analysis of the deposited data

How the results depend on the processing

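None of the 10 norrin and Wnt receptor genes was called under any of the 14 alternatives, and 129 of their 140 fitted values kept their direction. The alternative without a minimum fold change is the main fit with that limit dropped, so its fitted values could not differ. The other 11, all near 0 or few in reads, changed sign. Ctnnb1 went to -0.0031 under edgeR's own expression filter and was below 0 without OIR-CIH replicate 3 or OIR-Norm replicate 3. When single libraries were left out, Ctnnb1 ranged from -0.0533 to 0.0514, Apcdd1 from -0.203 to 0.0637, Tspan12 from -0.083 to 0.0451 and Sox17 from -0.58 to 0.26. Apcdd1 was above 0 in 4 of these fits, Tspan12 in 3 and Sox17 in 1. Relative to Pecam1 and Cdh5 instead of 12 endothelial markers, the differences were 0.2287 for Fzd4, 0.3974 for Tspan12, -0.3087 for Lef1, 0.3563 for Apcdd1 and 0.238 for Axin2. Lef1 came under the 0.5 limit on size without OIR-Norm replicate 2 (-0.4692) or OIR-CIH replicate 2 (-0.4999). The cause was not tested.

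Over all genes, 73 were called by edgeR and 135 by DESeq2 (101 lower and 34 higher), and 33 to 113 when single libraries were left out, with 24 to 94 lower and 9 to 36 higher. The lowest was without OIR-CIH replicate 1 and the highest without OIR-Norm replicate 3. Other Wnt pathway genes called numbered 0 to 3 in these fits and 1 by DESeq2. Deviations of same-numbered libraries from their group means were weakly correlated (0.1437, 0.1261 and -0.2364 over 14800 genes). With 3 libraries per group this cannot exclude a link between them. A replicate block gave 75 calls, which shared 57 genes with the 73, and no call among the 10 genes.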
